A study of Mus musculus with 12 samples.

Results

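Hox genes are the homeobox genes that stand in 4 clusters of the mouse genome, Hoxa on chromosome 6, Hoxb on chromosome 11, Hoxc on chromosome 15 and Hoxd on chromosome 2. Every probe whose RefSeq accession maps to a symbol Hoxa, Hoxb, Hoxc or Hoxd followed by a number was taken, which gave 46 probes for 37 of the 39 Hox genes, among 16535 genes named on the array. No probe was matched for Hoxc6 and Hoxc11. The 37 genes comprise 8 with the anterior paralog numbers 1 to 3, 14 with the central numbers 4 to 8 and 15 with the posterior numbers 9 to 13.

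RNA of esophagus and liver from 6 male mice, aged 8 months and of mixed 129Sv/C57BL6 background, was measured on 12 one-colour Agilent arrays, 1 array per organ and mouse. The 3 TG mice had the genotype Col1a1tetO-Nanog/+;Rosa26rtTA/+, in which doxycycline lets the rtTA activator, made from the Rosa26 locus, switch on a Nanog transgene behind tetO sequences at Col1a1. The 3 CTR mice were Col1a1+/+;Rosa26rtTA/+ and so carried the activator without the transgene. All 6 mice drank doxycycline at 0.2 mg/ml in 7.5% sucrose for 48 h, and each group of 3 arrays holds 3 mice. The esophagi were extracted with the RNeasy Fibrous Tissue kit and the livers with Trizol and then RNeasy, and the organ effect cannot be told apart from that of the extraction.

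Hox proteins are transcription factors that give cells along the head-to-tail axis of the embryo their positional identity. Genes at one end of a cluster (low paralog numbers) are switched on early and far forward, and genes at the other end (high numbers) later and further back. The expressed combination is kept in many adult tissues, above all in connective tissue and muscle, and is held by the Polycomb and Trithorax chromatin complexes. Genes with the same paralog number in different clusters are related copies with overlapping roles. Anterior members pattern the hindbrain and pharynx, central members the neck and thorax, and posterior members the lumbar and tail region, the limbs and the genital tract. Most Hox proteins bind DNA together with the TALE homeodomain cofactors Pbx and Meis.

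The promoters of 5 Hox genes, picked by hand, are as follows. Hoxd8 and Hoxd9 had large differences between the organs, and their neighbour Hoxd10 was not measured reliably in either. Hoxa7 and Hoxa9 are the last genes of the Hoxa cluster that were measured in the esophagus. Each sequence is the 250 bases before the RefSeq start of the gene (build GRCm38.p6), read 5′ to 3′ on the strand of the gene, and capitals mark CG dinucleotides.
Hoxa7 promoter, chr6:52218574-52218823, minus strand: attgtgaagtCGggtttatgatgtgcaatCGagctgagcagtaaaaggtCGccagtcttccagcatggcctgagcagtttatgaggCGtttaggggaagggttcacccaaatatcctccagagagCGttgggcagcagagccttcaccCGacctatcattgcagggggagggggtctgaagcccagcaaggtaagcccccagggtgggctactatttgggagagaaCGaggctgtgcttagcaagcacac
Hoxa9 promoter, chr6:52227371-52227620, minus strand: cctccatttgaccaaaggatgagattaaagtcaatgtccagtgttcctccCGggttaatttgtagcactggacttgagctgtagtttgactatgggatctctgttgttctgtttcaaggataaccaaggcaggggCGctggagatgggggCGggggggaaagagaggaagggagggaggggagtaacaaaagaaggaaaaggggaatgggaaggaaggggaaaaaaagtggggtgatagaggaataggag
Hoxd8 promoter, chr2:74704365-74704614, plus strand: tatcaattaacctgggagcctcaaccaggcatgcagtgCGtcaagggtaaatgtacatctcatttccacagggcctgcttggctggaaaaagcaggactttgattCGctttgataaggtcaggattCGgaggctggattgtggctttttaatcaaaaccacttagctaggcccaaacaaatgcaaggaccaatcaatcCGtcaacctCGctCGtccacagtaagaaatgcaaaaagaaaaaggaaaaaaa
Hoxd9 promoter, chr2:74697513-74697762, plus strand: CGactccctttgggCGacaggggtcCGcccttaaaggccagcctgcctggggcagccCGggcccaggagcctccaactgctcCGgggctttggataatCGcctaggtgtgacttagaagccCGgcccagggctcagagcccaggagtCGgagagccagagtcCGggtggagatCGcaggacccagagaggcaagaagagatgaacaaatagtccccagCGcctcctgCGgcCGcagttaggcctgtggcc
Hoxd10 promoter, chr2:74691641-74691890, plus strand: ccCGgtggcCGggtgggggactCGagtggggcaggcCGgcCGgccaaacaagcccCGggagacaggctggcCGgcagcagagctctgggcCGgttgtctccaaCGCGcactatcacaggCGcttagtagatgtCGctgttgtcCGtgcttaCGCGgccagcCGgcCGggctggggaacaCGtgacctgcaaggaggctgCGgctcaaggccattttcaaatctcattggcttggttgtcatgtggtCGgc

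Hoxd8 and Hoxa7 held 6 and 7 CG in this window, Hoxd9 held 13, Hoxd10 held 20 and Hoxa9 held 3. The median over the 32851 promoters of the RefSeq table was 6. There were 24 promoters for 22 of the 37 Hox genes, with 2 to 35 CG each and a median of 12.5. The 12 promoters of genes measured in the esophagus had a median of 10 CG and the 12 others one of 16.5, and the ranges of 3 to 28 and 2 to 35 overlapped almost fully. The motifs searched on both strands were the CCAAT box, the TATA sequence TATAAA, the Cdx-type site TTTATG and TGATNNAT, a form of the joint Hox and Pbx site. No motif match overlapped another kind in the 5 promoters shown, and a match is only a description of these letters. CCAAT stood in the Hoxd8 promoter 62 bases before the start and, on the other strand, in the Hoxd10 promoter 26 bases before it. TTTATG stood 236 and 173 bases before the Hoxa7 start. Over all these promoters 33.8% held CCAAT, 12.4% TATAAA, 10.8% TTTATG and 7.7% TGATNNAT. Of the 24 Hox promoters 14 held CCAAT, 4 TATAAA, 5 TTTATG and 4 TGATNNAT.

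Levels are log2 signals relative to the 75th percentile of their array, so that 0 is that percentile and strongly negative values are near the background. A probe was well above background where the scanner software set that flag. Between 56.3% and 81.8% of the probes carried the flag on an array. Liver TG3 was the highest array and liver CTR3 the lowest. Dim probes on these arrays also stood higher after scaling than on other arrays. Probes without the flag had a median of -7.92 to -7.54 on the esophagus arrays and -7.22 to -5.48 on the livers. A gene at background in both organs therefore tends to read lower in the esophagus. Arrays of one group correlated at 0.942 to 0.986 and arrays of different organs at 0.776 to 0.817 over all genes and other probes. The single Nanog probe stayed at background on all 12 arrays, at -8.01 ± 0.22 in TG and -8.17 ± 0.20 in CTR esophagus and at -6.51 ± 0.78 in TG and -7.17 ± 0.77 in CTR liver (SD, n = 3 each). Whether this probe lies in the transgene was not analysed, so these arrays do not show whether the transgene was induced. The labelled organs carried their defining transcripts: the 5 matched hepatocyte genes were well above background on all liver arrays, and the 7 keratinocyte genes on all esophagus arrays. The flag was also set for 2 to 4 of the hepatocyte genes on each esophagus array. It was set for 3 to 5 of the keratinocyte genes on each liver array. On a linear scale the hepatocyte genes summed to 1267 to 1643 in liver and 0.685 to 2.45 in esophagus. The keratinocyte genes summed to 488 to 699 in esophagus and 0.910 to 1.84 in liver.

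Nearly all central Hox genes were measured in the esophagus, and few of the posterior class were. The share of the anterior class lay near that of all genes and unnamed probes. A gene was counted in a group where a probe of it was well above background on all 3 arrays. This held for 20 of the 37 genes in TG esophagus and 22 in CTR esophagus, and for 13 in TG liver and 9 in CTR liver. Over all 34335 genes and unnamed probes the shares were 65.2% and 65.8% in TG and CTR esophagus, and 61.3% and 53.3% in TG and CTR liver. Of the 14 central genes 13 were counted in TG and 13 in CTR esophagus, and 8 in TG and 5 in CTR liver. Of the 8 anterior genes 5 were counted in TG and 6 in CTR esophagus, and 3 in TG and 2 in CTR liver. Of the 15 posterior genes 2 were counted in TG and 3 in CTR esophagus, and 2 in TG and 2 in CTR liver.

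**Figure D1:**
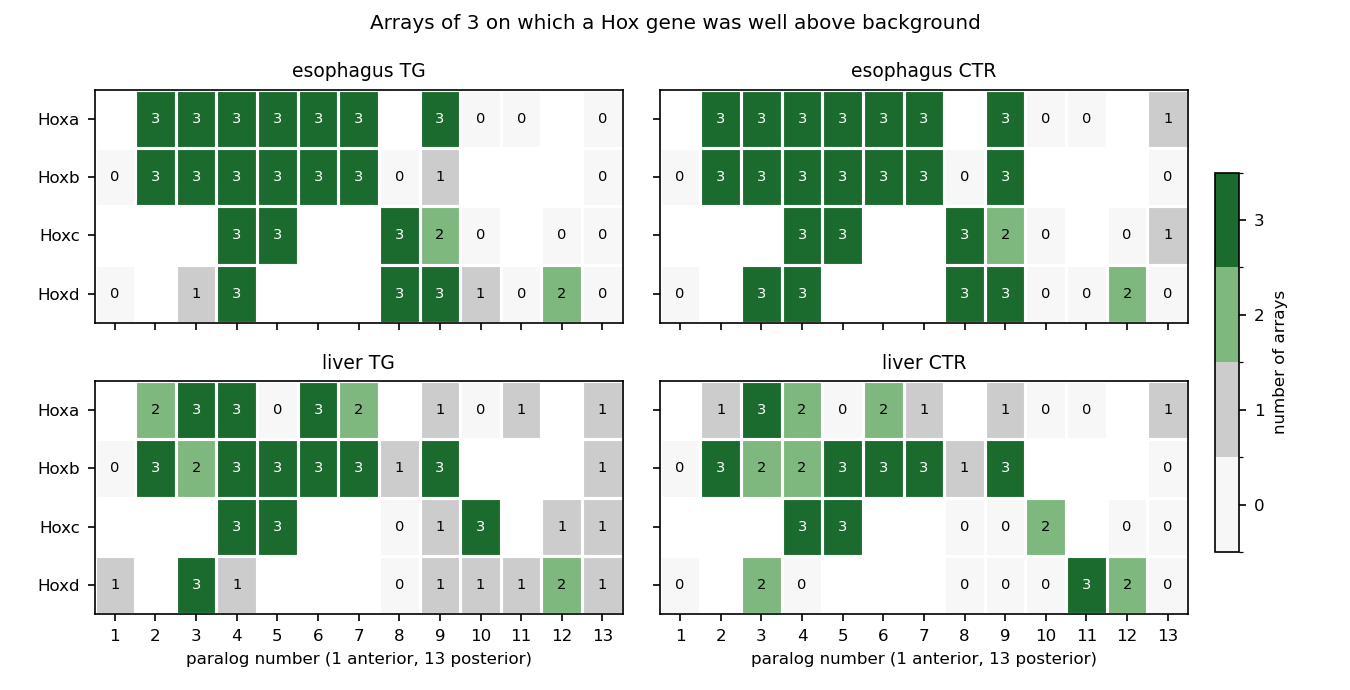
Number of arrays, out of 3, on which each Hox gene was well above background, for TG and CTR esophagus (top) and TG and CTR liver (bottom); rows are the clusters, columns the paralog numbers, and blank fields have no gene, no probe or no value shown. In the esophagus the full fields end at number 9 in Hoxa, Hoxb (CTR) and Hoxd and at number 8 in Hoxc, while the liver has full fields mainly in Hoxb and Hoxc.

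Toward the posterior end the counted genes stopped at paralog number 9 in Hoxa and Hoxd and at 8 in Hoxc in both esophagus groups, and in Hoxb at 7 in TG and at 9 in CTR esophagus. In Hoxa the genes from Hoxa2 to Hoxa9 were counted in both esophagus groups and Hoxa10, Hoxa11 and Hoxa13 in none. In Hoxd the genes Hoxd4, Hoxd8 and Hoxd9 were counted in both groups, and Hoxd3 was flagged on 1 TG array and 3 CTR arrays. Hoxd10 was well above background on 1 TG and 0 CTR arrays. Hoxd12 carried the flag on 2 of the 3 arrays in each of the 4 groups. In Hoxc the genes Hoxc4, Hoxc5 and Hoxc8 were counted in both groups, and Hoxc9 reached the flag on 2 TG and 2 CTR arrays. In Hoxb the genes Hoxb2 to Hoxb7 were counted in both groups, while Hoxb8 was at background on all 6 esophagus arrays. Hoxb9 was counted in CTR esophagus, with 1 flagged array in TG esophagus. The 2 anterior genes at the ends of their clusters, Hoxb1 and Hoxd1, were not above background on any of the 6 esophagus arrays.

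Fewer Hoxa and Hoxd genes were counted in the liver than in the esophagus. Of the 11 Hoxa genes 3 were counted in TG and 1 in CTR liver, against 8 in each esophagus group. Of the 9 Hoxd genes 1 was counted in each liver group, against 3 in TG and 4 in CTR esophagus. Of the 10 Hoxb genes 6 were counted in TG and 5 in CTR liver, against 6 and 7 in TG and CTR esophagus. Of the 7 Hoxc genes 3 were counted in TG and 2 in CTR liver, against 3 in each esophagus group. Over all genes and unnamed probes the shares were 61.3% in TG and 53.3% in CTR liver. Taking the groups of an organ together, 12 genes were counted in both organs (Hoxa3, Hoxa4, Hoxa6, Hoxb2, Hoxb4, Hoxb5, Hoxb6, Hoxb7, Hoxb9, Hoxc4, Hoxc5 and Hoxd3). A further 10 were counted in esophagus only (among them Hoxa2, Hoxa5, Hoxa7, Hoxa9, Hoxb3, Hoxc8, Hoxd4, Hoxd8 and Hoxd9), and 2 in liver only (Hoxc10 and Hoxd11). The remaining 13 were counted in neither, among them 10 of the 15 posterior genes. They include Hoxa13 and Hoxd13, which pattern digits and the genital tract, Hoxb13 of the prostate, and Hoxc13 of hair and nails. These 13 had median levels of -7.57 in TG and -7.68 in CTR esophagus, and of -5.97 in TG and -6.07 in CTR liver.

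The number of Hox genes above background followed the share of all probes above background on the same array. Liver TG3, with 81.8% of probes flagged, showed 30 Hox genes, including Hoxa13, Hoxb13, Hoxc12, Hoxc13 and Hoxd13, which no other liver array showed except Hoxa13 on CTR1. Liver CTR3, with 56.3% of probes, showed 10. The esophagus arrays showed 20, 22 and 25 in TG and 23, 24 and 25 in CTR mice, and liver TG1 and TG2 showed 14 and 18. The other control livers showed 19 and 18. Without liver CTR3 the count in CTR liver was 15 in place of 9, so the count in CTR liver depends on that array. A gene then needed the flag only on the arrays that remained, so the count could not fall. What raised the dim values on liver TG3 was not tested.

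**Figure D2:**
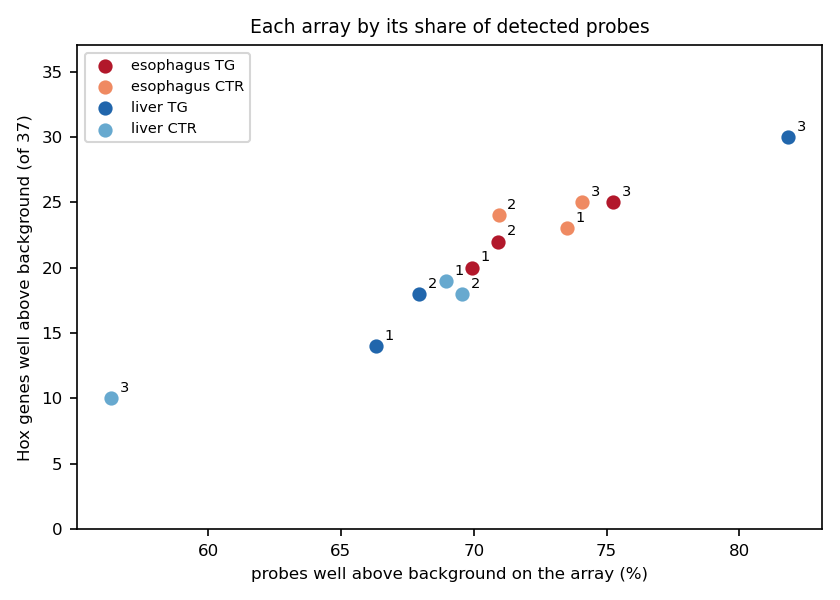
Each of the 12 arrays by its share of probes well above background (horizontal, percent) and its number of Hox genes above background (vertical, of 37), with the replicate number beside the point. Liver TG3 stands at the top right with 30 Hox genes and liver CTR3 at the lower left with 10.

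The esophagus was next compared with the liver in TG mice and in CTR mice, which share no animal. Both comparisons came from 1 fit with 1 estimate of the spread over the 4 groups, so their p-values are not independent. Of 13 tested central Hox genes 8 were higher in the esophagus in each genotype, with at least 25-fold in TG and at least 28.4-fold in CTR mice for Hoxd8. Hoxd3 and Hoxb9 were lower in the esophagus, although the call of Hoxb9 was lost in several other settings. With every gene and probe tested whatever its brightness, 14 of the 37 Hox genes were higher and 7 lower in the TG esophagus, against 16.1% higher and 35.2% lower, 51.3% in all, among the 34335 (limma, adjusted p under 0.05). In CTR mice 14 of 37 were higher and 5 lower, against 17.8% and 29.4%, 47.1% in all. Limited to those well above background on all 3 arrays of 1 of the groups compared, 23 Hox genes were tested. Of these 14 were higher and 3 lower in the TG esophagus, against 23.5% and 37.6% (61.1% in all) of 23911, and 14 higher and 3 lower in the CTR esophagus, against 26.8% and 33.4% (60.2% in all) of 23364. A gene that is bright in the esophagus alone passes this filter because it is bright there, so the counts over 23 are a description. The counts over 37 have another limit. Testing dim genes added lower calls for Hoxa11, Hoxb1, Hoxb8 and Hoxd11 in TG and Hoxb8 and Hoxc10 in CTR mice. None of these carried a flag on the esophagus arrays of that genotype. Background stood lower in the esophagus after scaling, and its part in the lower calls and shares was not tested. The median over all genes and probes tested was -0.36 in TG and -0.14 in CTR mice, and the differences are to be read against it.

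Both comparisons called the same 14 genes higher. All 14 belong to the anterior and central classes except Hoxa9 and Hoxd9. Among the genes and probes tested in both comparisons 22.3% were called higher both times. Hoxd3 and Hoxb9 were called lower both times, where 30.8% of all were. The TG organs did not overlap for 14 Hox genes that were higher and 5 that were lower in the esophagus, where 26.8% and 44.3% of all did not. The CTR organs did not overlap for 15 that were higher and 3 that were lower, where 31.1% and 37% of all did not. Every one of the 17 called genes kept its direction within each slide that held an esophagus and a liver array of the same genotype (slides 3 and 5 for TG, 1 and 2 for CTR mice). The organs did not overlap for any called gene, so this had to hold and is no check on the slides. In bulk tissue fewer cells that use a gene and less RNA per cell cannot be told apart.

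**Figure D3:**
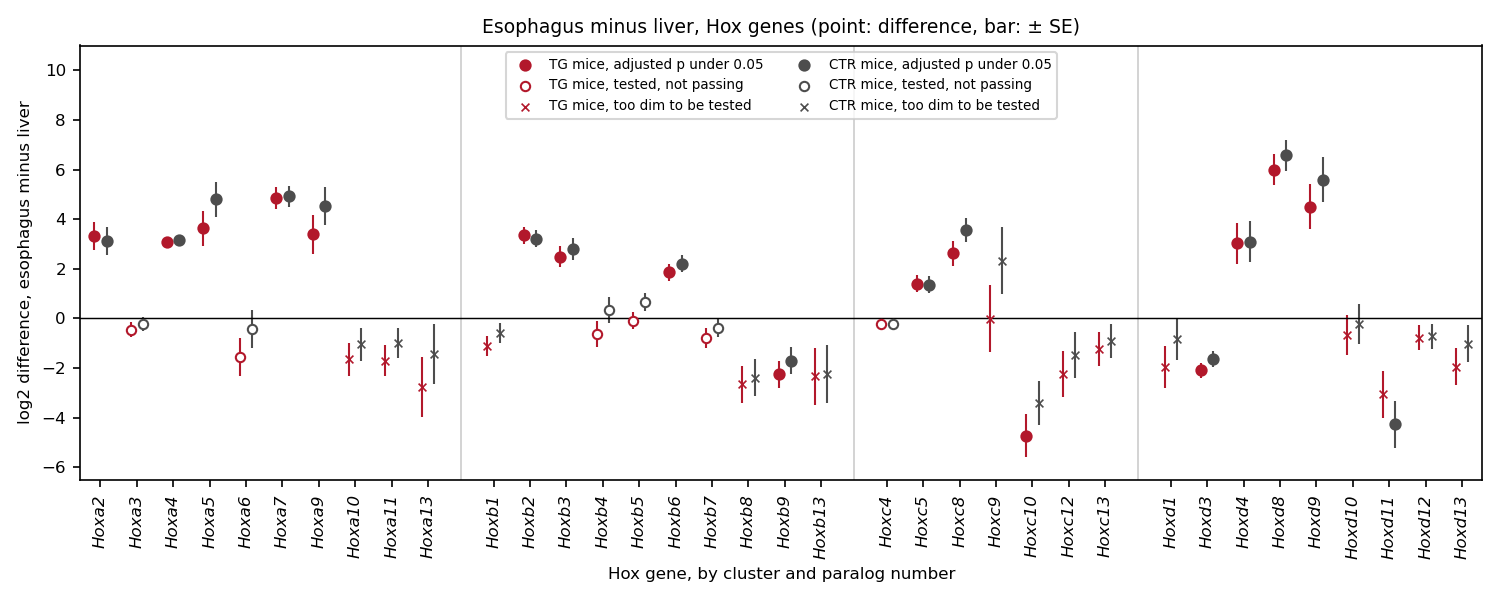
Log2 difference of esophagus minus liver for the Hox genes in TG (red, left of each pair) and CTR mice (grey), with the standard error as a bar; genes run by cluster and paralog number, filled points passed an adjusted p under 0.05 and crosses were too dim to be tested. Hoxd8 reaches 6.0 in TG and 6.57 in CTR mice, and the posterior genes from number 10 on lie below 0 in both. These posterior genes were too dim to be tested, except Hoxc10 in TG and Hoxd11 in CTR mice. Background also stood lower in the esophagus after scaling.

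Among the central genes, Hoxd8 was well above background on every esophagus array and on no liver array. It stood at -0.23, -0.53 and -0.31 in TG and at -0.45, -0.36 and 0.34 in CTR esophagus. In liver it was at -7.13, -7.16 and -4.78 in TG and at -7.14, -7.32 and -5.72 in CTR mice, never well above background. The organs were thus far apart on every array, with liver TG3 and CTR3 as the highest livers, and the gene was at least 25-fold higher in the TG esophagus (adjusted p = 1.97e-05) and at least 28.4-fold in the CTR esophagus (adjusted p = 9.76e-06). The adjusted p-values in this and the following paragraphs are those of limma over all genes and probes tested.

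Hoxa7, a thoracic gene of the Hoxa cluster, also separated the organs on every array. It stood at 0.84, 0.70 and 0.03 in TG and at 0.37, -0.06 and -0.12 in CTR esophagus, against -5.02, -4.62 and -3.33 in TG and -5.24, -4.28 and -5.04 in CTR liver. No liver array came near an esophagus array, and 2 TG livers and 1 CTR liver were well above background. The log2 difference was 4.85 (SE 0.44, adjusted p = 6.38e-06) in TG and 4.91 (SE 0.44, adjusted p = 5.63e-06) in CTR mice.

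Hoxa5, which the embryo needs for lung and trachea, was at -2.53, -2.41 and -2.66 in TG and at -2.44, -2.53 and -1.65 in CTR esophagus. In liver it was at -7.23, -6.94 and -4.32 in TG and at -7.34, -7.61 and -6.06 in CTR mice, with no flag. The organs did not overlap, and the gene was at least 5.16-fold higher in the TG esophagus (adjusted p = 0.00121) and at least 6.87-fold in the CTR esophagus (adjusted p = 0.000188). Hoxc8, a marker of the thoracic region, was at -3.92, -3.40 and -3.63 in TG and at -3.41, -3.04 and -3.54 in CTR esophagus. It was at -7.03, -6.63 and -5.16 in TG and at -7.41, -7.27 and -6.01 in CTR liver, again without a flag. It was at least 2.54-fold higher in the TG esophagus (adjusted p = 0.00112) and at least 3.15-fold in the CTR esophagus (adjusted p = 0.000141), and it did not pass in TG mice once dim values were raised to one floor.

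Hoxa4, a gene of the neck region, had the smallest p in both comparisons. It was at -1.04, -1.25 and -0.92 in TG and at -0.72, -1.07 and -0.77 in CTR esophagus, against -4.03, -4.40 and -3.98 in TG and -3.80, -3.97 and -4.28 in CTR liver. The arrays of each group lay close together, and the gene was 8.38-fold higher in the TG esophagus (adjusted p = 7.95e-07) and 8.95-fold in the CTR esophagus (adjusted p = 5.97e-07). A second Hoxa4 probe did not show this: its difference was -0.34 (SE 0.51) in TG and 0.23 (SE 0.51) in CTR mice, and neither passed. Hoxb6, a thoracic gene, was at -0.53, -0.74 and -1.71 in TG and at -0.16, -0.49 and -0.55 in CTR esophagus. It was at -2.91, -3.10 and -2.54 in TG and at -2.79, -2.06 and -2.93 in CTR liver, with a flag on all 12 arrays. The organs did not overlap, and it was 3.63-fold higher in the TG and 4.57-fold higher in the CTR esophagus (adjusted p = 0.000952 and 0.000318).

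The other central genes that passed were Hoxc5 and Hoxd4. Hoxc5, which acts in the neck region together with Hoxa5, was 2.63-fold higher in the TG esophagus (adjusted p = 0.00532) and 2.56-fold in the CTR esophagus (adjusted p = 0.00619), with a flag on all 12 arrays; with quantile normalization the call in CTR mice was lost. Hoxd4, a gene of the neck vertebrae, averaged -3.33 ± 1.01 in TG and -4.10 ± 0.35 in CTR esophagus, against -6.35 ± 1.77 in TG and -7.20 ± 0.83 in CTR liver (SD, n = 3 each). Among the livers Hoxd4 was flagged on TG3 alone, and it was at least 1.85-fold higher in the CTR esophagus. Its calls (adjusted p = 0.00908 in TG and 0.00804 in CTR mice) did not pass with that floor.

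Among the anterior genes, Hoxb2 had the smallest p in both comparisons. Hoxb2, which like Hoxa2 patterns the hindbrain and the pharyngeal arches, was at 0.39, 0.86 and 0.91 in TG and at 0.86, 0.64 and 0.46 in CTR esophagus. In liver it was at -3.11, -2.94 and -1.85 in TG and at -2.94, -2.31 and -2.44 in CTR mice. All 12 arrays were well above background, and the gene was 10.2-fold higher in the TG and 9.31-fold higher in the CTR esophagus (adjusted p = 1.36e-05 and 1.78e-05). Hoxa2 was at -1.15, -2.26 and -1.61 in TG and at -2.32, -2.41 and -2.41 in CTR esophagus, against -6.37, -4.94 and -3.61 in TG and -5.46, -5.23 and -5.77 in CTR liver. Only 2 TG livers and 1 CTR liver were well above background for Hoxa2. Liver TG3 was again the highest liver. Without it the difference in TG mice was 3.99, and without liver TG1 it was 2.61, in place of 3.31 (SE 0.57, adjusted p = 0.000598). In CTR mice the difference was 3.11 (SE 0.57, adjusted p = 0.000892).

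Hoxb3, a gene of hindbrain and pharynx, was at -2.32, -1.79 and -2.08 in TG and at -1.85, -2.16 and -1.81 in CTR esophagus. It was at -5.58, -4.54 and -3.54 in TG and at -4.50, -4.61 and -5.10 in CTR liver, where 2 arrays of each genotype carried the flag. The log2 difference was 2.49 (SE 0.43, adjusted p = 0.000617) in TG and 2.80 (SE 0.43, adjusted p = 0.000278) in CTR mice. A second probe of Hoxb3, flagged on 1 TG liver and 0 CTR livers, did not pass in TG mice (adjusted p = 0.0630) and was at least 3.38-fold higher in the CTR esophagus (adjusted p = 0.0276). Hoxd3 ran the other way: it was at -5.41, -5.80 and -4.90 in TG and at -5.23, -5.28 and -4.78 in CTR esophagus, against -3.60, -3.32 and -2.89 in TG and -3.68, -3.01 and -3.69 in CTR liver. Every liver stood above every esophagus, and the differences were -2.10 (SE 0.31, adjusted p = 0.000197) in TG and -1.64 (SE 0.31, adjusted p = 0.00103) in CTR mice. The esophagus values lay near the background, and with that floor the call in CTR mice was lost. The second Hoxd3 probe carried no flag at all.

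**Figure D4:**
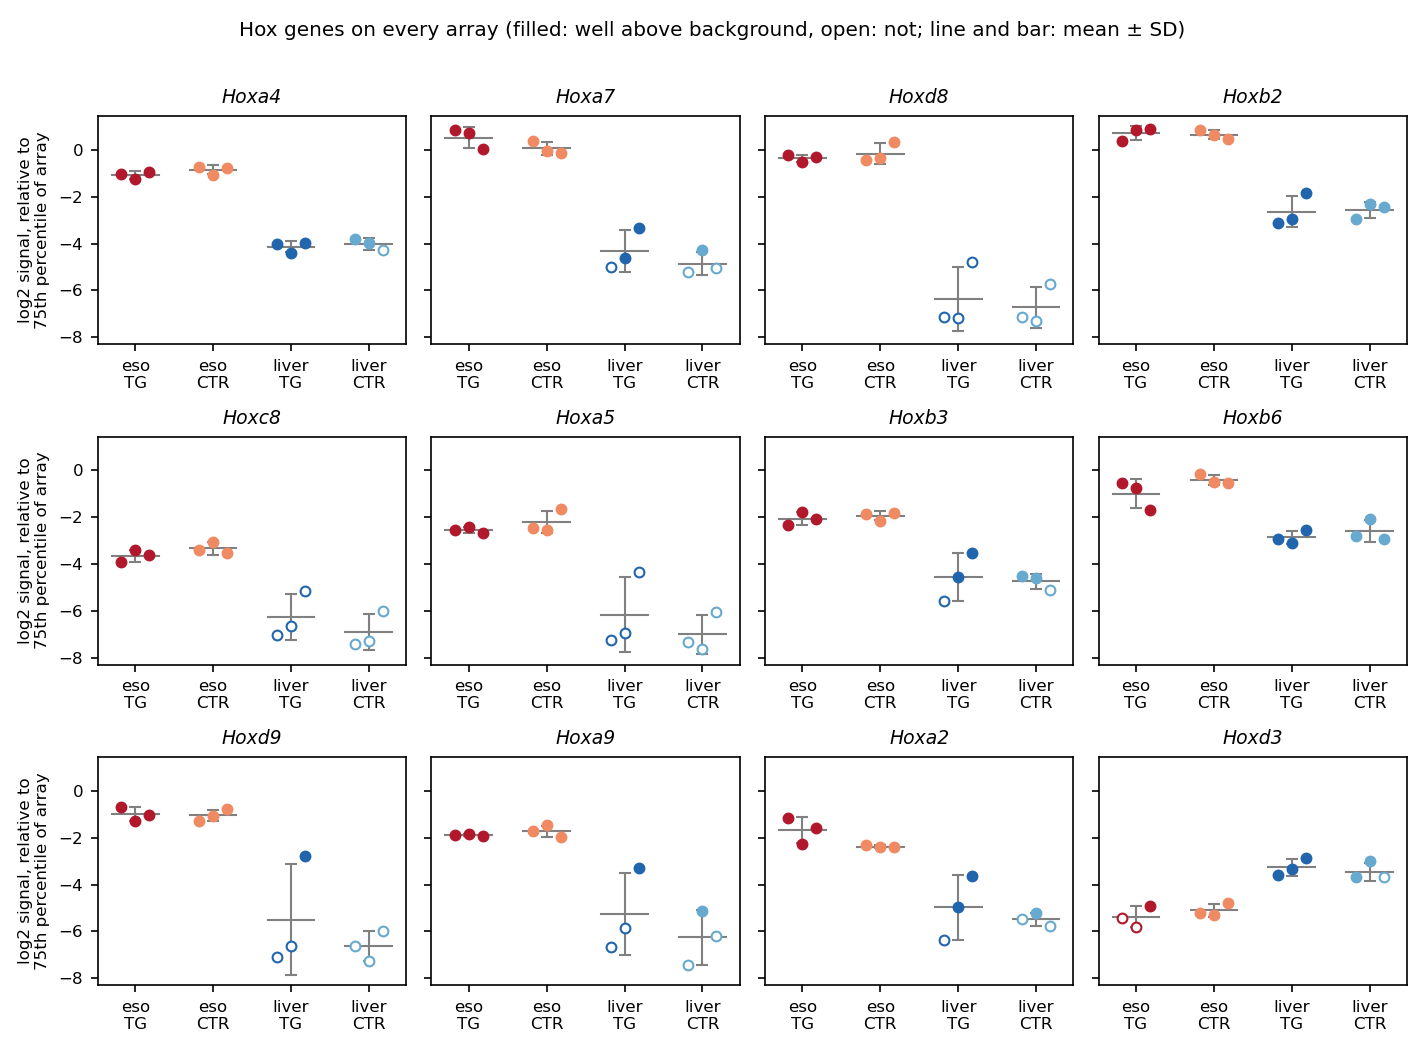
Log2 signal, relative to the 75th percentile of the array, of the 12 Hox genes with the smallest p in CTR esophagus against CTR liver, on each array of the 4 groups; filled points were well above background, open points were not, and lines with bars give the mean ± SD of 3 arrays. In 11 panels the 6 esophagus points lie above the 6 liver points, and in Hoxd3 below them.

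Among the posterior genes only Hoxa9 and Hoxd9 were higher in the esophagus. Hoxd9 was at -0.68, -1.27 and -1.03 in TG and at -1.28, -1.05 and -0.79 in CTR esophagus, against -7.09, -6.60 and -2.79 in TG and -6.64, -7.25 and -5.98 in CTR liver. Only liver TG3 was well above background among the 6 livers, and even it lay below every esophagus. The gene was at least 15.4-fold higher in the CTR esophagus (adjusted p = 0.000414), and in TG mice the difference was 4.50 (SE 0.91, adjusted p = 0.00168). Without liver TG3 it was 5.85, and without liver TG1 it was 3.70. The second probe of Hoxd9 was flagged on all esophagus arrays and, among the livers, on TG3 only. It differed by 2.45 (SE 0.81, adjusted p = 0.0235) in TG mice and was at least 4.27-fold higher in the CTR esophagus (adjusted p = 0.00429). Hoxa9, known from blood stem cells and leukaemia, was at -1.87, -1.83 and -1.92 in TG and at -1.73, -1.48 and -1.97 in CTR esophagus. It was at -6.65, -5.84 and -3.30 in TG and at -7.45, -5.13 and -6.19 in CTR liver, with 1 flagged array in each genotype. The esophagus values of each genotype lay close together, the livers were spread widely, and the differences were 3.39 (SE 0.78, adjusted p = 0.00370) in TG and 4.53 (SE 0.78, adjusted p = 0.000611) in CTR mice. In TG mice the difference was 4.37 without liver TG3 and 2.70 without liver TG1, and in CTR mice it was 3.93 without liver CTR1.

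Hoxb9, Hoxc10 and Hoxd11 were the posterior genes with more signal in liver. Hoxb9, which patterns the ribs, was at -6.54, -6.48 and -5.40 in TG and at -5.64, -5.45 and -5.11 in CTR esophagus, against -4.37, -3.24 and -4.05 in TG and -4.90, -3.52 and -2.66 in CTR liver. The organs did not overlap, and the differences were -2.25 (SE 0.55, adjusted p = 0.00502) in TG and -1.71 (SE 0.55, adjusted p = 0.0208) in CTR mice. The call was lost in both genotypes with quantile normalization, with normexp, with the common floor and in the authors' deposited table, and in CTR mice also without single arrays of either organ. In the authors' deposited table, as with normexp, 14 genes were higher and 1 lower in the CTR esophagus, in place of 14 and 3.

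Hoxc10, a gene of the lumbar region and hindlimb, was at -6.87, -8.10 and -7.03 in TG and at -7.40, -7.39 and -8.23 in CTR esophagus, with no flag. In liver its brighter probe was at -3.61, -3.23 and -0.98 in TG and at -3.92, -2.74 and -6.11 in CTR mice, so that liver CTR3 alone lay near the esophagus. The gene was at least 10.4-fold lower in the TG esophagus (adjusted p = 0.000975), a call lost with the common floor, and in CTR mice 2 of the 3 livers carried the flag. A second Hoxc10 probe was well above background on liver TG3 only. Hoxd11, which shapes the forearm and the kidney, was flagged on all 3 CTR livers at -5.09, -5.53 and -1.49 and on 1 TG liver, where it was at -5.59, -3.46 and -4.61. It was at -7.97, -6.80 and -8.09 in TG and at -8.24, -8.22 and -8.45 in CTR esophagus, at least 4.09-fold lower than liver in CTR mice (adjusted p = 0.00290). This call was lost with normexp, in the authors' deposited table and with the common floor.

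The tested genes that did not pass in either genotype, each by its brightest probe, were Hoxa3, Hoxa6, Hoxb4, Hoxb5, Hoxb7 and Hoxc4. Their differences ran from -1.55 to -0.09 in TG and from -0.44 to 0.66 in CTR mice, with adjusted p-values of 0.101 or higher. With slide as a fixed block Hoxb5 passed in CTR mice, at 0.89 (SE 0.23, adjusted p = 0.0201). Without liver TG1 Hoxb7 passed in TG mice, at -1.13 (SE 0.38, adjusted p = 0.0292). Hoxc4, the first gene of its cluster, varied little. It averaged -1.06 ± 0.17 in TG and -1.13 ± 0.29 in CTR esophagus, and -0.84 ± 0.11 in TG and -0.89 ± 0.26 in CTR liver (SD, n = 3 each). Hoxa3, which the thymus and parathyroid need, had probes that disagreed. Its brighter probe was at -1.85, -2.04 and -2.34 in TG and at -2.06, -1.67 and -1.19 in CTR esophagus, and at -1.62, -1.78 and -1.46 in TG and -1.66, -0.92 and -1.68 in CTR liver. Its second probe was at -2.55, -3.09 and -2.90 in TG and at -2.59, -3.14 and -3.02 in CTR esophagus, against -7.14, -7.17 and -3.30 in TG and -7.13, -6.53 and -5.71 in CTR liver. The first probe overlapped between the CTR organs and the second did not. The second probe was flagged on liver TG3 alone among the livers. It differed by 3.02 (SE 0.87, adjusted p = 0.0127) in TG mice and was at least 4.19-fold higher in the CTR esophagus (adjusted p = 0.00549). Where in the transcript each probe lies was not analysed here.

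For 3 further genes the probes differed in their flags. Hoxa13 reached -1.54 on liver TG3 and carried the flag on CTR esophagus 3 at -5.69 and liver CTR1 at -4.95 with its brighter probe, and on liver TG3 alone, at -3.11, with the other. Its other values ran from -7.94 to -7.60 in TG and -7.94 to -7.69 in CTR esophagus and from -6.78 to -6.02 in the livers. Hoxb8, which acts in microglia, was flagged on liver TG3 (-2.88) and CTR1 (-4.75) with the brighter probe and nowhere with the other. Its other values lay between -7.70 and -6.87 in TG and -8.26 and -6.69 in CTR esophagus. The second Hoxb9 probe was flagged on esophagus TG3 (-5.84) and CTR3 (-5.77) only.

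Marker transcripts of cell types that carry Hox expression in adult tissue differed between the organs. Marker genes of fibroblasts, smooth muscle, skeletal muscle and keratinocytes were called higher in the esophagus in full, 8 of 8, 7 of 7, 7 of 7 and 7 of 7, in TG as in CTR mice. The summed level of the fibroblast genes, on a linear scale where 1 is the 75th percentile of the array, was 292 to 358 in TG and 300 to 354 in CTR esophagus, against 43.4 to 61.7 in TG and 33.7 to 50.6 in CTR liver. For smooth muscle it was 307 to 406 in TG and 342 to 467 in CTR esophagus, against 9.82 to 21.8 in TG and 19.3 to 21.9 in CTR liver. In liver at least 7 of the 8 fibroblast genes were above background on every array. Of 6 genes listed for stellate cells, the liver's own mesenchyme, 2 were higher and 4 lower in the TG esophagus, and 2 higher and 3 lower in the CTR esophagus. Des, which stood in this list, was also in the smooth muscle list. The stellate list summed to 65.0 to 78.6 in TG and 55.3 to 81.7 in CTR esophagus, against 5.03 to 8.38 in TG and 3.94 to 6.97 in CTR liver. As a sum it therefore does not mark the liver. The part of these cells in the Hox differences was not tested.

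Counts over the marker lists above and the lists that follow stand beside the shares of all tested. These were 23.5% higher and 37.6% lower in the TG esophagus, and 26.8% and 33.4% in the CTR esophagus. Of the 9 TALE cofactors 5 were higher in the esophagus in both genotypes, and Pbx4 was the 1 lower in TG mice. Pknox2, not above background on any liver array, was at least 6.52-fold higher in the TG and at least 6.48-fold higher in the CTR esophagus. Meis1, which binds DNA together with Hox proteins, differed by 2.80 (SE 0.49) in TG and 3.25 (SE 0.49) in CTR mice. Meis2 differed by 1.11 (SE 0.24) and 1.47 (SE 0.24) and Pbx3 by 1.29 (SE 0.21) and 1.69 (SE 0.21) in TG and CTR mice.

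Retinoic acid switches on Hox genes in the embryo, and genes of its pathway went both ways. Of the 16 tested genes 6 were higher and 6 lower in the TG esophagus, and 4 higher and 6 lower in the CTR esophagus. Aldh1a2, which makes retinoic acid, differed by 4.20 (SE 0.37) in TG and 5.09 (SE 0.37) in CTR mice, and the binding protein Crabp2, flagged on 1 TG liver and 0 CTR livers, was at least 13.6-fold higher in the CTR esophagus. Cyp26a1, which breaks retinoic acid down, differed by -6.22 (SE 0.59) in TG and -7.16 (SE 0.59) in CTR mice, and Stra6, which takes up retinol, by -3.37 (SE 0.37) and -3.65 (SE 0.37). The summed level of the pathway genes was 65.3 to 74.5 in TG and 72.6 to 92.8 in CTR esophagus, against 316 to 453 in TG and 278 to 584 in CTR liver. That sum weighs the brightest genes most and joins genes of opposite roles, so it does not measure the pathway's activity. The median difference of the tested genes was -0.37 in TG and -0.34 in CTR mice.

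Of the 19 tested chromatin regulators 5 were higher and 2 lower in the TG esophagus, and 6 higher and 1 lower in the CTR esophagus; the counts of higher genes are near the share of all. Phc1, a subunit of the Polycomb complex PRC1, differed by 2.90 (SE 0.19) in TG and 2.98 (SE 0.19) in CTR mice. Cbx7, another PRC1 subunit, differed by 0.99 (SE 0.21) and 1.36 (SE 0.21), and Ezh1 and Ezh2, the methyltransferases of PRC2, by 1.42 (SE 0.16) and 0.81 (SE 0.22) in TG and by 0.89 (SE 0.16) and 1.17 (SE 0.22) in CTR mice. Of 8 tested genes at the cluster edges or in the ParaHox group, Lnpk, beyond the Hoxd13 end of its cluster, differed by 2.37 (SE 0.26) in TG and 3.08 (SE 0.26) in CTR mice, and Mtx2, beyond the Hoxd1 end, by -1.41 (SE 0.19) and -1.20 (SE 0.19). The other 6 did not pass in either genotype. Of the 12 noncoding genes inside the clusters 0 were matched to a probe.

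The TG mice were then compared with the CTR mice within each organ. In the esophagus 0 of the 22 tested Hox genes passed between TG and CTR mice, with a limma adjusted p of 0.9999 at the least, and 0 had an unadjusted p under 0.05. Over all 23205 genes and probes tested 0% passed, with 735 at an unadjusted p under 0.05. The differences of the 22 ran from -0.74 to 0.77 on the log2 scale, 8 above and 14 below 0, with standard errors of 0.21 to 0.91.

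The genes with the smallest p on the higher side were Hoxa2, Hoxa7 and Hoxd4. Hoxa2, at -1.15, -2.26 and -1.61 in TG and at -2.32, -2.41 and -2.41 in CTR esophagus, was the 1 tested Hox gene whose groups did not overlap, where 6.32% of all were higher and 6.13% lower without overlap. Its difference was 0.71 (SE 0.57). Hoxa7 differed by 0.46 (SE 0.44) and overlapped, with esophagus TG3 at 0.03 among the CTR arrays. Hoxd4 was at -2.17, -4.02 and -3.78 in TG and at -3.70, -4.24 and -4.36 in CTR esophagus, so that TG1 alone stood high, and its difference was 0.77 (SE 0.82). Without TG1 it was 0.20.

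On the lower side were Hoxb6, Hoxa3 and Hoxb9, which did not pass either. Hoxb6 differed by -0.59 (SE 0.34), with TG3 at -1.71 below the other arrays, and without TG3 by -0.24. Hoxa3 differed by -0.43 (SE 0.29), with both groups overlapping. Hoxb9 differed by -0.74 (SE 0.55) and was well above background on 1 TG and 3 CTR arrays. Of the marker genes of neighbouring organs 0 passed between TG and CTR esophagus. Heart genes summed to 10.4 to 11.3 in TG and 18.9 to 191 in CTR esophagus, without overlap. Airway and thyroid genes summed to 0.951 to 31.2 in TG and 28.8 to 250 in CTR esophagus, and fat genes to 40.3 to 140 in TG and 106.9 to 146 in CTR esophagus, both with overlap. Their part in the Hox values was not tested.

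**Figure D5:**
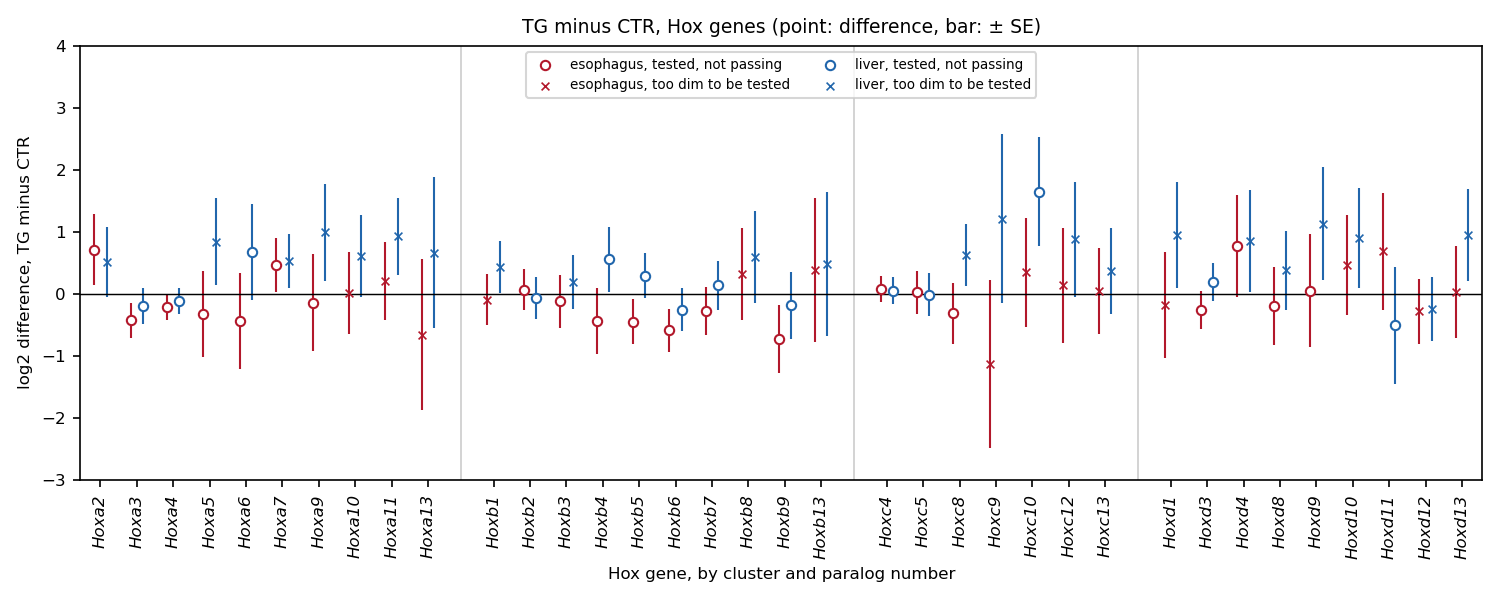
Log2 difference of TG minus CTR for the Hox genes in esophagus (red, left of each pair) and liver (blue), with the standard error as a bar; open circles were tested and did not pass, and crosses were too dim to be tested. The tested genes lie between -0.74 and 0.77 in esophagus and between -0.52 and 1.65 in liver.

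In the liver 0 of the 14 tested Hox genes passed, against 0% of 21247, with a smallest limma adjusted p of 0.761 and 0 at an unadjusted p under 0.05, where 1299 of all had one. The median over all tested was 0.13, so a value near that is not a shift of a Hox gene. Without overlap 0 Hox genes were higher and 0 lower, against 8.42% and 2.87% of all. The differences ran from -0.52 to 1.65, 7 above and 7 below 0. Hoxc10 had the largest, at 1.65 (SE 0.88), and overlapped: its TG livers were at -3.61, -3.23 and -0.98 and its CTR livers at -3.92, -2.74 and -6.11. It rests on liver TG3 and CTR3, and without both arrays it was -0.10. Hoxb4, which expands blood stem cells when overexpressed, was at -3.94, -3.90 and -2.39 in TG and at -3.20, -3.85 and -4.84 in CTR liver, a difference of 0.55 (SE 0.53).

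Hoxa6 was at -2.97, -3.0 and -1.32 in TG and at -1.93, -3.30 and -4.06 in CTR liver, a difference of 0.67 (SE 0.77). Again TG3 was the highest and CTR3 the lowest array, and without both arrays Hoxb4 was at -0.40 and Hoxa6 at -0.37. On the lower side Hoxb6 differed by -0.26 (SE 0.34), Hoxa3 by -0.20 (SE 0.29) and Hoxa4 by -0.12 (SE 0.21), all with overlapping groups. The difference between the organs in their TG effect was tested over 24 Hox genes, and 0 passed, against 0% of 24436, with a smallest adjusted p of 0.994 and 0 at an unadjusted p under 0.05 (1005 of all).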

How the data were processed

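Each array file is the scanner output of Agilent Feature Extraction 10.7.1.1, per the file headers, with processed signal intensities and background flags per spot; the design was annotated on mouse build mm8. A table of log2 values, deposited by the authors, has columns that correlated at 0.9999 or more with values computed here by normexp and quantile normalization. Spots marked as outliers (1311) were left out and none was saturated. Signals were put on a log2 scale, set relative to the array's 75th percentile and averaged over the spots of a probe. Probes were named through RefSeq accessions (23374 of 41174 probes). The brightest probe stood for a gene, and unnamed probes stood alone. A gene was tested if well above background on all 3 arrays of 1 of the groups compared. One limma 3.58.1 fit (R 4.3.3) over the 12 arrays gave Benjamini-Hochberg adjusted p-values. An "at least" fold takes, for the dim group, the higher of each array's lowest signal well above background and the probe's own value. The Hox genes and the gene lists were chosen with earlier results of these data known. Genes described by name were every Hox gene well above background on all 3 arrays of a group, the smallest p-values in each comparison, genes whose probes disagree, and the list members with the smallest p in CTR mice. The values of 1 Hox gene are not reported here, although the counts include it. The alternatives were quantile normalization, normexp on median and background intensities (offset 50), the authors' table, a common floor, no filter, every probe, other flags, slide or mouse as a block, and single arrays left out. Organs of 1 mouse are paired per the labels; their deviations correlated at -0.06 to 0.16. The number of arrays limits the precision. The test was also tried on simulated data.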

Additional observations from a re-analysis of the deposited data

How the results depend on the processing

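The counts of called Hox genes, 17 in TG and 17 in CTR mice for esophagus against liver, ranged from 13 to 21 in TG and from 12 to 19 in CTR mice over the other settings, and from 16 to 17 in TG and 15 to 17 in CTR mice when single arrays were left out. The lowest counts came from the common floor and the highest from no filter. The mouse as a replicate block left 17 and 17 calls, and 0 between TG and CTR mice in either organ, and changed no other call. Genes counted above background in TG liver were 22 in place of 13 with the flag for positive and significant signal. In CTR liver they were 19 with that flag and 16 if 2 of 3 arrays sufficed, in place of 9. Leaving out single arrays gave 20 to 22 in TG and 22 to 23 in CTR esophagus, and 13 to 16 in TG and 9 to 15 in CTR liver. A gene then needed the flag only on the arrays that remained, so these counts could not fall. With the common floor Hoxd3 in CTR mice was at -0.51 (adjusted p = 0.068) and Hoxc8 in TG mice at 0.31 (adjusted p = 0.097). Between TG and CTR livers, where no Hox gene was called, leaving out single arrays gave -0.25 to 0.0136 for Hoxa4 (sign turned without TG2), -0.43 to 0.007 for Hoxb6 and -0.33 to 0.0463 for Hoxa3 (both turned without CTR2). It also turned for Hoxc10 (-0.10), Hoxb4 (-0.40) and Hoxa6 (-0.37) without liver TG3 and CTR3, left out together as a choice made after seeing the data. These causes were not tested. Over all genes and probes, up to 9 were called between TG and CTR esophagus, up to 25 in liver and up to 3 for the difference between organs, all with the floor, in place of 0. Hoxb9 gave no value between esophagi with the floor, since all its values lay at it. For the 12 Hox genes with the smallest p between the CTR organs and the 6 named in each comparison of TG with CTR mice, 783 of 791 recomputed values kept direction and side of the threshold. The 12 were picked for small p in these data and the others had no call to lose, which favours a high share. Hoxb9, Hoxd11, Hoxd4, Hoxc10 and Hoxc5 between the organs are not among the 12, and each lost a call in a setting named with it. Dim probes limit the 13 Hox genes counted in no group, which were flagged 5 times in TG and 6 in CTR esophagus, and 12 times in TG and 4 in CTR liver.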

Other observations

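Further marker lists were measured beside the Hox genes. Of all tested, 23.5% were higher and 37.6% lower in the TG esophagus, and 26.8% and 33.4% in the CTR esophagus. With so few genes per list, counts near these shares are not read as differences of a cell type. In the esophagus against liver, heart genes were higher for 4 of 6 in TG and 5 of 6 in CTR mice, fat genes for 4 of 5 and 6 of 6, and nerve and glia genes for 3 of 4 in both. Airway and thyroid genes were higher for 0 of 3 in TG and 4 of 5 in CTR mice. Cholangiocyte genes were higher for 1 of 5 in TG and 2 of 5 in CTR mice. Endothelial genes were higher for 2 and lower for 2 of 6, and leukocyte genes higher for 1 and lower for 1 of 6, in both genotypes. Of 3 tested thymus genes 2 were lower in TG and 1 in CTR mice. Stomach genes were higher for 1 and lower for 2 of 4 in TG mice, and higher for 1 and lower for 1 of 3 in CTR mice. All 5 hepatocyte genes were lower in both. Between TG and CTR mice 0 genes of any list passed in limma in either organ.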
